A study of Rattus norvegicus with 24 samples.

Results

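The genes described here are 9 genes of blood coagulation and plasminogen activation: Plau, Plaur, Plat, Serpine2, F3, F13a1, F10, Thbd and Procr. They were taken by name from a table of 29539 genes and all 9 were in it. All 9 passed the filter on low counts, which left 14421 genes to test. The libraries come from rat brain (Rattus norvegicus) in 3 groups of 8. In the SKF group, SKF-81297, an agonist of the D1-like dopamine receptors, was injected into the peritoneum on each of 3 days, the first time 1 h after a stab wound of the forebrain, per the series description. Vehicle is a group the titles name by that word alone, taken here to mean wounded brain treated with the carrier. The normal control group is not called sham-operated, so vehicle against normal control holds the wound, the surgery and the carrier together. The labels used here state neither strain, sex nor age, and neither brain region nor collection time.

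Blood clots where tissue factor (F3) on cells outside the vessel meets factor VII in plasma, which activates factor X (F10) and then thrombin, and factor XIII (its catalytic subunit is F13a1) crosslinks the fibrin that forms. Thrombomodulin (Thbd) and the endothelial protein C receptor (Procr) turn thrombin to activating protein C, which stops the cascade. Fibrin is cleared by plasmin, made from plasminogen by the tissue activator (Plat) or by urokinase (Plau), which acts bound to its receptor (Plaur). Serpine2 is an inhibitor of thrombin and of both activators. In brain, Plat is also a protease of neurons and glia, and Serpine2 is made by glia.

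RefSeq promoter windows (build GRCr8, 250 bases before to 50 after the annotated start) were matched for 6 of the 9 genes: Plau, Plaur, Serpine2, F13a1, F10 and Procr. They are shown for Plau and Plaur, the pair with the highest fold change after the wound, for Procr, and for Serpine2, which changed the other way. Capitals mark matches on either strand to AP-1 (TGANTCA) or to the GC box (GGGCGG), and GC boxes in Serpine2 overlap or abut one another. The windows of F13a1 and F10 held neither and are not shown.
Plau chr15:3511938-3512237, minus strand: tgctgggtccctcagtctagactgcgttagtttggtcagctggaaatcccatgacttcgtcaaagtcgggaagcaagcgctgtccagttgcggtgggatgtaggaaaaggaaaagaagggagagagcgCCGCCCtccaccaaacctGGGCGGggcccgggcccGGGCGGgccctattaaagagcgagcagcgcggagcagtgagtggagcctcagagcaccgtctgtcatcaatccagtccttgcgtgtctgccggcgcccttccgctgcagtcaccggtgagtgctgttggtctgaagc
Plaur chr1:89181113-89181412, plus strand: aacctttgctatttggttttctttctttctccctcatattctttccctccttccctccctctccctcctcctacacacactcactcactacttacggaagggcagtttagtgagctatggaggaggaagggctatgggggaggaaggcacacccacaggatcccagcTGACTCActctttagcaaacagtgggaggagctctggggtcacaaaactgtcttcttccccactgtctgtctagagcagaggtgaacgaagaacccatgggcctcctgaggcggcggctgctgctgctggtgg
Procr chr3:164714477-164714776, plus strand: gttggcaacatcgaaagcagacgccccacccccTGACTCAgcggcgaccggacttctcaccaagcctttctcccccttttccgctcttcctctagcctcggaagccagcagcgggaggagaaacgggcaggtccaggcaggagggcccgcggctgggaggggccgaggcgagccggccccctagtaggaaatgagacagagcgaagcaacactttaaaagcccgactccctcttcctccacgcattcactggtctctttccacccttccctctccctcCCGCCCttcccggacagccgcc
Serpine2 chr9:88637153-88637452, minus strand: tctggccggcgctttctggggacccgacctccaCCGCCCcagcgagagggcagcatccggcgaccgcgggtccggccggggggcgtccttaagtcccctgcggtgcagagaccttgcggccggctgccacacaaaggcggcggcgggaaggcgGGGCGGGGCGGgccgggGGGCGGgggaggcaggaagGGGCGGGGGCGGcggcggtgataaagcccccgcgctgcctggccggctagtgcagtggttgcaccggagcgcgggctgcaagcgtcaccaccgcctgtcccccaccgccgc
The AP-1 letters were found in 2 of the 6 windows, Plaur and Procr, and in 7.33% of 33469 rat promoter windows of the same length. The GC box was found in Plau (3 matches), Serpine2 (6) and Procr (1), and in 33.1% of all windows. The letters of the cAMP response element, TGACGTCA, and of a TATA box, TATAAA, were in 0 of the 6 windows, against 1.83% and 14.2% of all windows. These are letter matches in a fixed window and describe no binding.

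Total counts ran from 8911339 to 12383368 per library. Whether each of the 8 samples came from its own animal is not stated, and p-values therefore measure spread between samples, which may be technical. Levels are given in TPM, the authors' value per transcript length, and tests were run on counts. Markers of blood-derived or border macrophages summed to 97.5 to 128 TPM in SKF, 114 to 177 in vehicle and 11.2 to 17.2 in normal control (8 genes of the list), with Mcemp1 at 0 in every normal control library. Neutrophil markers summed to 81.2 to 138 TPM in SKF, 142 to 376 in vehicle and 4.20 to 12.0 in normal control (8 genes), with Elane at 0 in normal control. Endothelial markers summed to 154 to 187 TPM in SKF, 165 to 220 in vehicle and 142 to 189 in normal control. Choroid plexus markers varied within every group, from 1059 to 8620 TPM in SKF, 3662 to 13875 in vehicle and 11.6 to 12622 in normal control. Normal control 4 and 6 stood apart in an earlier analysis of these data, and results are given without both where that ends a call. These are bulk samples, in which more cells of a type and more RNA per cell cannot be told apart.

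**Figure D1:**
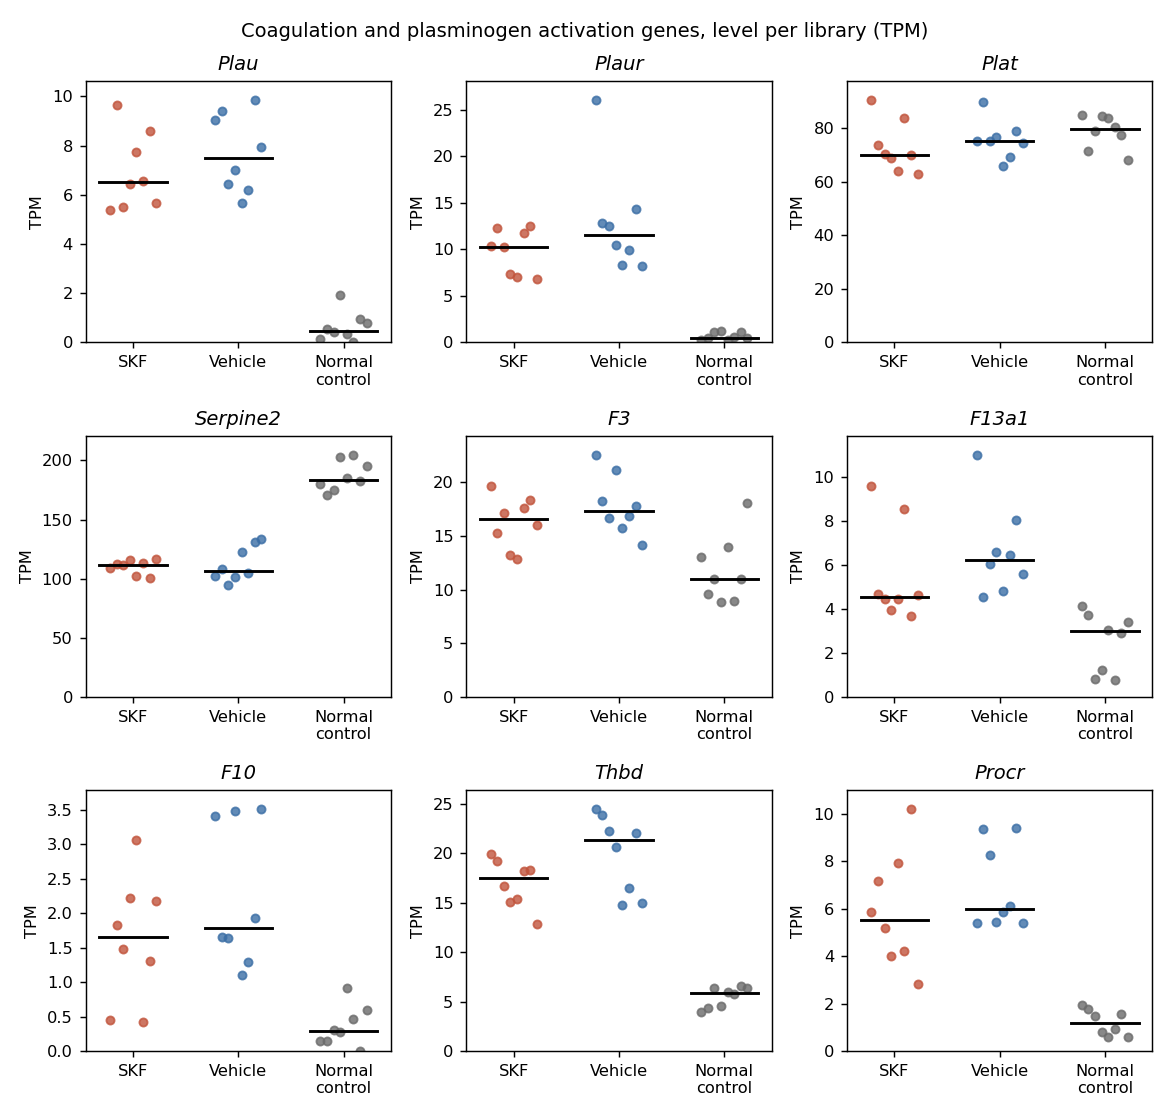
TPM of each gene in each library (points) with the group median (bar), 8 libraries each of SKF, vehicle and normal control. Plau, Plaur, Thbd and Procr stood above all normal control libraries in all 16 wounded libraries, and Serpine2 below all of them.

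The first comparison, vehicle against normal control, covers the stab wound and its surgery. Urokinase, its receptor, factor X, thrombomodulin, the protein C receptor, factor XIII A and tissue factor were higher in vehicle, 7 of the 9 genes, and Serpine2 and Plat were lower. Of all 14421 genes tested, 26.9% were called higher and 27.1% lower at an adjusted p of 0.05. Called higher by at least 2-fold were 6 of the 9 genes, against 7.69% of all genes. In 6 of the 9 genes every vehicle library was above every normal control library, which held for 11.6% of all genes, and Serpine2 was below in every library, which held for 7.50%. The median log2 fold change of the 9 genes was 1.72, against -0.01 over all genes. In normal control alone, Plau, Plaur, Procr and F10 cleared the count limit of 0.918 CPM in 3, 3, 4 and 0 of 8 libraries. They were tested because of their level after the wound, so the counts above describe the 9 genes and are no separate evidence.

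Urokinase and its receptor had the highest fold changes of the 9 genes. Plaur, the urokinase receptor, had a lowest, median and highest level of 8.23, 11.5 and 26.0 TPM in vehicle, against 0.264, 0.494 and 1.27 TPM in normal control. Every vehicle library was above every normal control library, and vehicle 1 stood at 26.0 TPM, above the next at 14.3. The log2 fold change was 4.07 ± 0.30 (SE, n = 8 per group; edgeR adjusted p = 1.17e-11). Plau, urokinase, had 5.65, 7.48 and 9.84 TPM in vehicle (lowest, median, highest), against 0, 0.477 and 1.92 TPM in normal control. The groups did not overlap, and the normal control libraries ran from 0 counts in normal control 6 to 31 in normal control 4. Plau rose by 3.42 ± 0.33 (log2, SE; edgeR adjusted p = 2.52e-09), a 10.7-fold change with a 95% interval of 6.70 to 17.1.

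Plat, the tissue plasminogen activator, was already among the abundant members in normal brain and moved little. It had 65.9, 75.3 and 89.8 TPM in vehicle (lowest, median, highest), against 68.3, 79.8 and 85.0 TPM in normal control. The groups overlapped, and 7 of 8 vehicle libraries lay below the normal control median in scaled counts. It fell by 0.18 ± 0.07 (log2, SE; edgeR adjusted p = 0.0256). This call was lost with limma on log2(TPM + 1), where the difference was -0.06 (adjusted p = 0.510) and the median over all genes stood 0.11 higher in vehicle. It was also lost without normal control 1 (adjusted p = 0.0507), vehicle 5 (0.0597) or vehicle 6 (0.0510), or with normal control 4 and 6 both left out (0.0889).

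Serpine2, the inhibitor of thrombin and both activators, was the member with the highest level per length in all 3 groups. It had 94.8, 107 and 134 TPM in vehicle, against 171, 184 and 205 TPM in normal control (lowest, median, highest). All vehicle libraries were below all normal control libraries. Serpine2 fell by 0.86 ± 0.07 (log2, SE; edgeR adjusted p = 4.69e-11), to 0.549 of its normal control level (95% interval 0.497 to 0.607). Among markers of the glia that make it, 7 of 8 astrocyte genes and 7 of 8 oligodendrocyte genes were also lower. Gfap, the intermediate filament of reactive astrocytes, was the exception among the astrocyte genes and rose by 2.46 ± 0.12, while S100b, for example, fell by 1.04 ± 0.08. The summed astrocyte markers, Gfap included, were at 4357 to 6059 TPM in vehicle and 3889 to 4519 in normal control. The part of glia in the Serpine2 result was not tested.

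Ratios of gene pairs were taken within each library. This removes scaling between libraries, except where the added pseudocount weighs on genes near 0. The groups were tested by exact permutation, two-sided (smallest possible p 0.0001554, adjusted over 21 tests). All pairs use the same genes and libraries as the gene tests, so the ratios restate those changes and are no separate support. Urokinase rose against the tissue activator: the log2 ratio of Plau to Plat averaged -3.24 in vehicle and -6.27 in normal control, a difference of 3.04 ± 0.27 (SE, exact permutation adjusted p = 0.000408). Because Plau was near 0 in normal control, the size depends on the pseudocount: it was 3.90 with 0.1 TPM, 2.52 with 1 TPM and 3.80 in log2 CPM, and the ratio passed in each. As a share of Plau plus Plat transcripts, Plau made up 9.17% ± 1.26 (SD, n = 8) in vehicle and 0.807% ± 0.718 in normal control. The tissue activator remained the main activator transcript in every library. The ratio of Plat to its inhibitor Serpine2 was higher by 0.68 ± 0.10 (exact permutation adjusted p = 0.000408). The ratio of Plau to Plaur had a difference of -0.50 ± 0.25, which did not pass (exact permutation adjusted p = 0.150). It passed with a pseudocount of 1 TPM (-0.53, adjusted p = 0.0363), without normal control 3 (-0.60, adjusted p = 0.0447) and without normal control 6 (-0.63, adjusted p = 0.0242) in the exact permutation test.

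**Figure D2:**
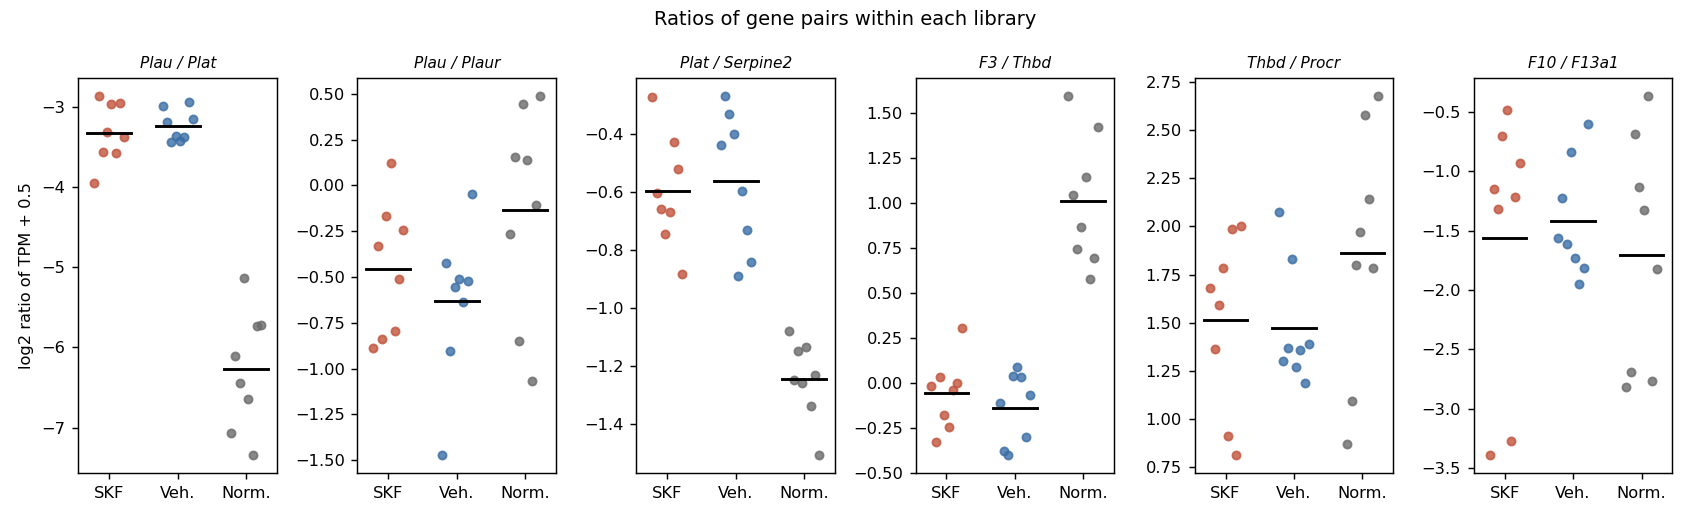
Log2 ratio of TPM + 0.5 for 6 gene pairs in each library (points) with the group mean (bar), in SKF, vehicle (Veh.) and normal control (Norm.); each panel has its own vertical scale. The ratios of Plau to Plat, Plat to Serpine2 and F3 to Thbd do not overlap between either wounded group and normal control.

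Genes that drive clotting rose less evenly. F3, tissue factor, had 14.2, 17.3 and 22.6 TPM in vehicle (lowest, median, highest), against 8.85, 11.0 and 18.1 TPM in normal control. In TPM the groups overlapped through normal control 8 at 18.1 TPM, while the other 7 normal control libraries were at 13.9 TPM or less. In scaled counts the overlap was wider, and 5 of 8 normal control libraries lay below every vehicle library. F3 rose by 0.47 ± 0.13 (log2, SE; edgeR adjusted p = 0.00358). F10, factor X, was the least abundant of the 9 genes in every group by its median, with 7 to 26 counts per library in vehicle and 0 to 6 in normal control. Its levels were 1.11, 1.79 and 3.51 TPM in vehicle, against 0, 0.291 and 0.918 TPM in normal control. F10 rose by 2.47 ± 0.47 (log2, SE; edgeR adjusted p = 6.72e-05), with a 95% interval from 2.85-fold to 10.8-fold. On the log2(TPM + 1) scale, which understates changes of low genes, the difference was 1.22 for F10, 2.46 for Plau and 2.99 for Plaur, and all 3 stayed called (limma adjusted p at most 2.32e-05).

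F13a1, the catalytic subunit of factor XIII, is also known as a gene of tissue macrophages and platelets. It had 4.55, 6.24 and 11.0 TPM in vehicle (lowest, median, highest), against 0.759, 2.99 and 4.12 TPM in normal control. The groups did not overlap. Normal control itself was uneven, with 0.759 to 1.21 TPM in normal control 3, 4 and 6 and 2.91 to 4.12 TPM in the other 5 libraries. F13a1 rose by 1.28 ± 0.29 (log2, SE; edgeR adjusted p = 0.000584). Macrophage markers were higher as well in 7 of 7 tested genes. Ms4a7, a macrophage marker under the filter, did not follow (-0.21 without the filter, edgeR adjusted p = 0.866). The part of macrophages in the F13a1 result was not tested.

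Both anticoagulant receptors, membrane proteins of endothelium and of some blood cells, rose. Thbd, thrombomodulin, had 14.8, 21.3 and 24.4 TPM in vehicle, against 4.01, 5.93 and 6.58 TPM in normal control. Every vehicle library was above every normal control library. Thbd rose by 1.72 ± 0.13 (log2, SE; edgeR adjusted p = 1.06e-11). Procr, the protein C receptor, had 5.40, 6.00 and 9.40 TPM in vehicle, against 0.587, 1.21 and 1.97 TPM in normal control, again without overlap. Procr rose by 2.37 ± 0.28 (log2, SE; edgeR adjusted p = 6.27e-08). The endothelial markers did not move as a group: 3 of 8 tested (Pecam1, Cdh5 and Esam) were higher by 0.65, 0.64 and 0.64, and 2 of 8 (Emcn and Slco1a4) fell by 0.32 and 0.66. The part of endothelium, or of other cells that carry these receptors, was not tested.

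Thrombomodulin rose by more than tissue factor. The log2 ratio of F3 to Thbd averaged -0.14 in vehicle, with a range of -0.40 to 0.086, and 1.01 in normal control, with a range of 0.58 to 1.59. The difference of -1.15 ± 0.14 passed (exact permutation adjusted p = 0.000408), and the groups did not overlap. The ratio of Thbd to Procr had a difference of -0.39 ± 0.25 (exact permutation adjusted p = 0.299), although without normal control 1 it was -0.53 (adjusted p = 0.0488). That of F10 to F13a1 had a difference of 0.29 ± 0.38 (exact permutation adjusted p = 0.644).

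**Figure D3:**
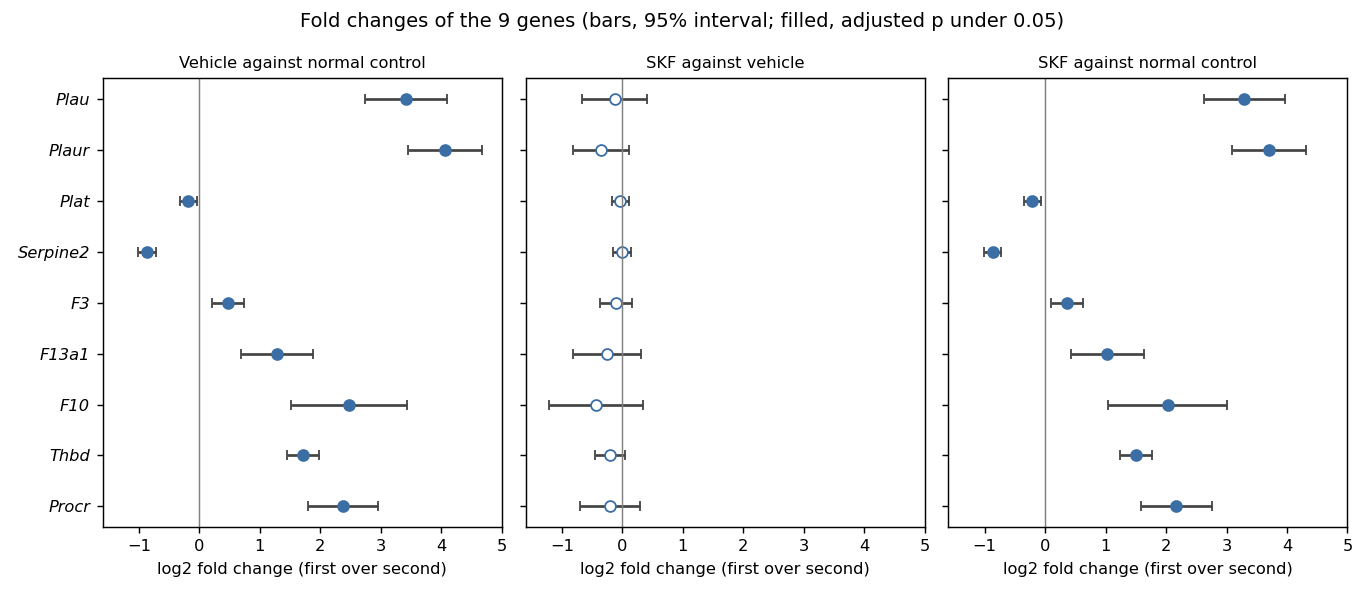
Log2 fold change of the 9 genes with 95% intervals in vehicle against normal control, SKF against vehicle and SKF against normal control; filled points have an edgeR adjusted p under 0.05. In SKF against vehicle all 9 intervals include 0, while in both comparisons with normal control 7 genes lie above 0 and 2 below.

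The other genes of these pathways were read from 5 lists made from general knowledge. Of 13 genes of the plasminogen system, 9 were tested, and 5 rose and 2 fell (median 0.46). Anxa2 and S100a10, which together form a cell-surface dock for Plat and plasminogen, rose by 3.05 ± 0.17 and 2.78 ± 0.16 (log2, SE). A2m, a broad plasma protease inhibitor, rose by 1.81 ± 0.24. Vtn, vitronectin, an adhesive protein of plasma and matrix, fell by 0.84 ± 0.13. Serpini1, neuroserpin, the neuronal inhibitor of Plat, fell by 0.54 ± 0.10. Plg, plasminogen itself, was under the filter, with 0 to 18 counts in SKF, 0 to 18 in vehicle and 0 to 5 in normal control.

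Most clotting factors, which are made in liver, were near 0 in these libraries. Of 14 listed, 4 were tested, and Vwf, the platelet-tethering protein of endothelium, rose by 1.03 ± 0.11. F12, the factor that starts contact activation, fell by 0.86 ± 0.31 (edgeR adjusted p = 0.0205). F2, prothrombin, had 0 to 3 counts per library in SKF, 0 to 4 in vehicle and 0 to 1 in normal control. Fga, the alpha chain of fibrinogen, had 0 to 14 counts in SKF, 4 to 12 in vehicle and 0 to 2 in normal control, and was called in vehicle by edgeR without the filter (3.68 ± 0.69, adjusted p = 5.69e-05). F7, the partner of F3, had 0 to 10 counts in SKF, 0 to 22 in vehicle and 0 to 1 in normal control, and was also called without the filter (adjusted p = 0.00271). So were Kng1, Klkb1 and Fgb (adjusted p = 4.10e-06, 0.0149 and 0.0354), each at no more than 7 counts in any library, while Fgg, F2, F9 and F11 did not pass. In the other lists, Serpinb2 (0 to 6 counts in vehicle, 0 in every normal control library) and F2rl3 (6 to 18 counts in vehicle, 0 to 4 in normal control) were called without the filter as well. Of 12 anticoagulant and vitamin K genes, 9 were tested and 7 rose, with a median of 0.41. Tfpi2 and Tfpi, relatives of which Tfpi blocks the F3 pathway, rose by 4.34 ± 0.37 and 0.96 ± 0.11, and Serping1, the C1 inhibitor, by 1.94 ± 0.15. Of 4 thrombin-type receptors 2 were tested, and F2rl1, the receptor cleaved by trypsin-like proteases, rose by 1.15 ± 0.22 while F2r had -0.03 ± 0.08 (adjusted p = 0.737). Of 10 platelet genes, 8 were in the table and 2 tested, and both rose: Pf4, a chemokine of platelet granules that macrophages also express, by 3.08 ± 0.33, and Itga2b, the fibrinogen receptor subunit, by 1.05 ± 0.23. The platelet genes under the filter did not follow: without the filter 0 of 5 passed, with Clec1b at 1.39, Gp9 at 0.54, Gp1bb at 0.27, Treml1 at -0.36 and Gp1ba at -0.90 (edgeR adjusted p from 0.194 to 0.811), and Ppbp had 0 counts in every library. Red blood cell markers, which mark blood in the tissue, summed to 803 to 2368 TPM in vehicle and 173 to 299 in normal control, and the part of blood in these results was not tested.

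**Figure D4:**
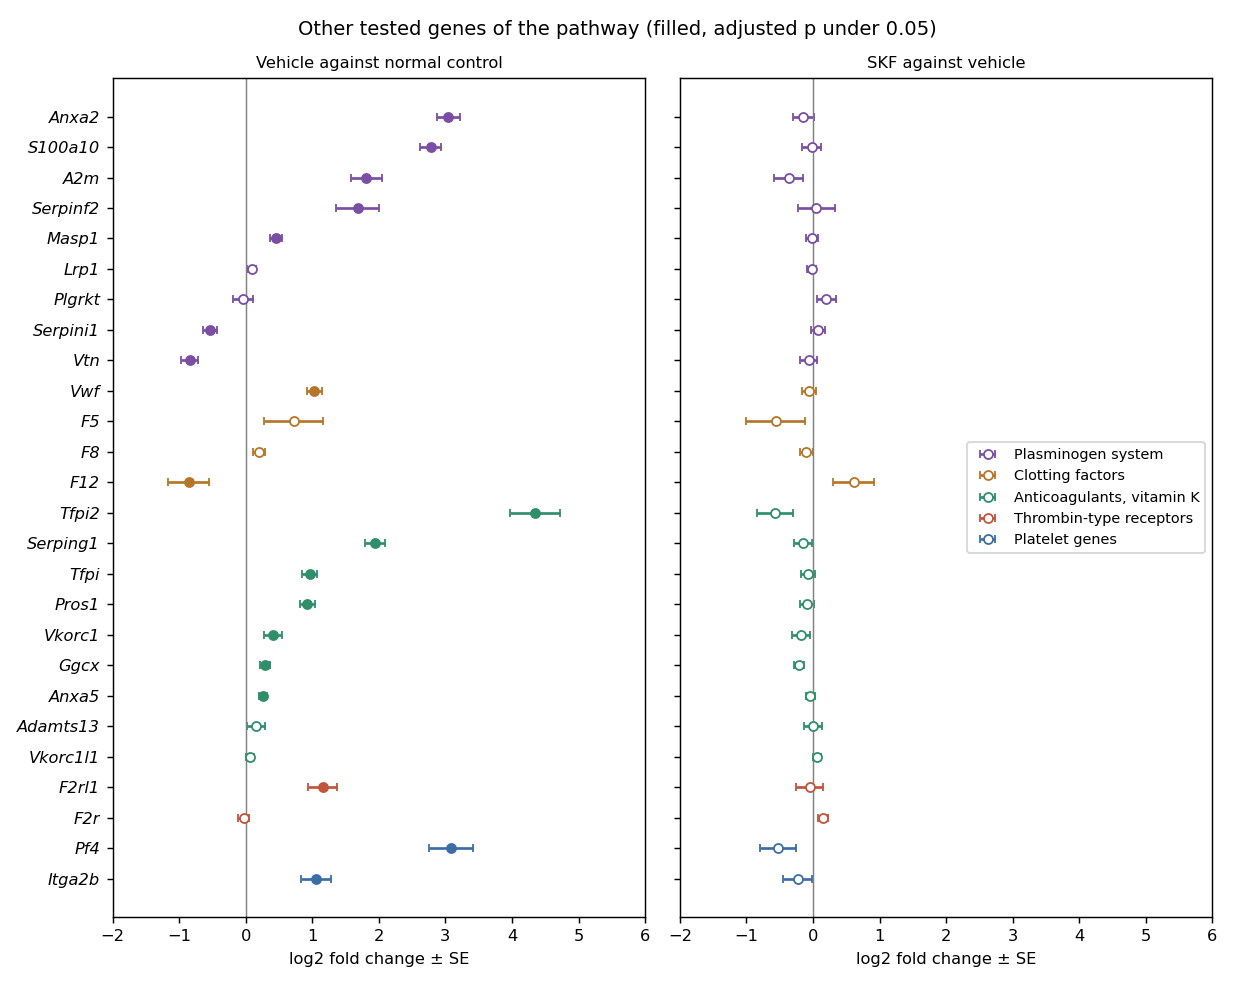
Log2 fold change ± SE of the 26 tested genes of the 5 pathway lists in vehicle against normal control (left) and in SKF against vehicle (right), coloured by list; filled points have an edgeR adjusted p under 0.05. Tfpi2 is the gene farthest to the right after the wound, and 0 points are filled in SKF against vehicle.

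SKF against vehicle compares wounded brain with and without the agonist. Of the 9 genes 0 passed, and the edgeR test called 0 of 14421 genes (0%), with 715 (4.96%) at an unadjusted p under 0.05. DESeq2 called 6 genes, 0 of them among the 9. The 2 groups overlapped in all 9 genes, where 0.0139% of all genes lay lower without overlap. All 9 fitted log2 fold changes were below 0, from -0.003 for Serpine2 to -0.44 for F10, with a median of -0.20, where 49.5% of all genes tested were below 0. The direction was not steady for 2 of them: Serpine2 turned to 0.002 in the replicate block and to 0.017 with limma voom, and both Plat and Serpine2 turned when single libraries were left out. Neutrophil markers were lower in every SKF library than in every vehicle library by their summed TPM, and macrophage markers leaned the same way with overlap. By edgeR 0 of 6 tested neutrophil genes and 0 of 7 macrophage genes passed. Other lists leaned down too, with 8 of 8 genes of fibroblasts and meninges below 0. Below 0 were also 7 of 7 genes of choroid plexus, 7 of 8 of microglia and 6 of 8 of endothelium. Astrocyte, neuron and oligodendrocyte genes mostly went the other way, with 0, 1 and 2 of 8 below 0. The part of any of these cells in the values below was not tested.

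Thbd had the smallest p of the 9. Its levels were 12.8, 17.5 and 19.9 TPM in SKF (lowest, median, highest), against 14.8, 21.3 and 24.4 TPM in vehicle. Each of the 8 SKF libraries was under the median of vehicle, and 5 vehicle libraries lay above every SKF library, but the ranges overlapped. The log2 fold change was -0.21 ± 0.12 (SE, unadjusted p = 0.0924, edgeR adjusted p = 0.937), with an interval from -0.46 to 0.04. Plaur had 6.77, 10.3 and 12.5 TPM in SKF, against 8.23, 11.5 and 26.0 TPM in vehicle. Its log2 fold change of -0.36 ± 0.23 (edgeR adjusted p = 0.937) was -0.14 without vehicle 1.

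Plau had 5.37, 6.51 and 9.66 TPM in SKF, against 5.65, 7.48 and 9.84 TPM in vehicle, with a log2 fold change of -0.12 ± 0.26 and an interval from -0.66 to 0.42. Procr had 2.83, 5.54 and 10.2 TPM in SKF, against 5.40, 6.00 and 9.40 TPM in vehicle. Its log2 fold change was -0.20 ± 0.24, and the SKF libraries spread on both sides of the vehicle range. F3 had 12.9, 16.6 and 19.6 TPM in SKF, against 14.2, 17.3 and 22.6 TPM in vehicle, at -0.11 ± 0.13. The intervals were narrowest for the abundant genes. Plat had 63.1, 70.2 and 90.5 TPM in SKF, against 65.9, 75.3 and 89.8 TPM in vehicle, with a log2 interval from -0.17 to 0.11. Serpine2 had 100.3, 112 and 117 TPM in SKF, against 94.8, 107 and 134 TPM in vehicle, with a log2 interval from -0.15 to 0.14. Of the 6 pair ratios 0 passed between SKF and vehicle (exact permutation adjusted p from 0.626 to 0.842). Of the 26 tested genes of the pathway lists 0 passed, with F12 at 0.61 ± 0.31, Tfpi2 at -0.57 ± 0.27 and Pf4 at -0.53 ± 0.27 (edgeR adjusted p = 0.937 for each).

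F13a1 and F10 were uneven in SKF. F13a1 had 9.60 TPM in SKF 1 and 8.53 TPM in SKF 6, while the other 6 SKF libraries lay between 3.70 and 4.68 TPM, against 4.55 to 11.0 TPM in vehicle. The same 2 libraries had the lowest F10, 0.462 TPM in SKF 1 and 0.432 TPM in SKF 6, each from 3 counts, while the other 6 lay between 1.31 and 3.07 TPM, against 1.11 to 3.51 TPM in vehicle. Their log2 fold changes were -0.25 ± 0.28 for F13a1 and -0.44 ± 0.38 for F10, with intervals from -0.82 to 0.32 and from -1.22 to 0.34. Leaving out single libraries moved F13a1 between -0.40 (without SKF 1) and -0.12 (without vehicle 1), and F10 between -0.62 (without SKF 5) and -0.29 (without SKF 6). Procr moved between -0.37 (without SKF 7) and -0.10 (without SKF 8), Plau between -0.20 (without SKF 2) and -0.066 (without vehicle 7), and F3 between -0.15 (without vehicle 8) and -0.064 (without SKF 5), with 0 of them called. The intervals of F13a1 and F10 are wide enough to hold a fall to 0.567 or a rise to 1.25 times for F13a1, and a fall to 0.430 or a rise to 1.26 times for F10.

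SKF was also set against normal control, which shares its libraries with the first comparison and so is no separate support. The same 7 genes were higher and the same 2 lower, where 25.5% and 24.7% of all genes were called. Plaur was higher by 3.71 ± 0.30, Plau by 3.30 ± 0.33, Procr by 2.17 ± 0.28, F10 by 2.03 ± 0.48, Thbd by 1.51 ± 0.13, F13a1 by 1.03 ± 0.29 and F3 by 0.36 ± 0.13 (log2, SE). Serpine2 fell by 0.87 ± 0.07 and Plat by 0.21 ± 0.07. Plau, Plaur, Thbd and Procr were above, and Serpine2 below, normal control in every library, where 11.5% and 7.11% of all genes did so. F13a1 and F10 overlapped normal control here. On the log2(TPM + 1) scale the differences were 0.89 for F10, 2.33 for Plau and 2.69 for Plaur. The F3 call was lost without normal control 2, normal control 4, SKF 1 or SKF 7 (edgeR adjusted p from 0.0530 to 0.0574) or with normal control 4 and 6 both left out (0.25, adjusted p = 0.117). The Plat call was lost on the TPM scale (-0.11, limma adjusted p = 0.196). The ratio of Plau to Plat was higher by 2.95 ± 0.29 (2.44 with 1 TPM and 3.80 with 0.1 TPM as pseudocount) and that of F3 to Thbd lower by 1.07 ± 0.14 (exact permutation adjusted p = 0.000408 for each).

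In level per length, the 9 genes fell in the order Serpine2, Plat, F3, Thbd, F13a1, Procr, Plaur, Plau and F10 by their median TPM in normal control. In vehicle the order was Serpine2, Plat, Thbd, F3, Plaur, Plau, F13a1, Procr and F10, and in SKF it was Serpine2, Plat, Thbd, F3, Plaur, Plau, Procr, F13a1 and F10. In vehicle the ranges of Plaur, Plau, F13a1 and Procr overlapped one another, and so did those of Thbd and F3. The same held in SKF, so the group ranges do not set the order among these genes. Within libraries, Plaur was above Plau in every vehicle library (log2 ratio of Plau to Plaur -1.47 to -0.046). In SKF that ratio ran from -0.89 to 0.12. The ratio of F3 to Thbd lay on both sides of 0 in vehicle (-0.40 to 0.086) and in SKF (-0.33 to 0.30). The SKF and vehicle levels were neighbours for each of the 9 genes and did not differ beyond their spread.

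For the 6 genes that rose at least 2-fold in vehicle, the genes most alike in profile were found as those with the smallest root-mean-square difference in centred log2 CPM over the 24 libraries. Thbd had the closest partners, Antxr2 at 0.21 and Niban2 at 0.21 (log2 units), against its own spread of 0.80. Plaur was closest to S100a11 and Tubb6 (0.40 and 0.41, own spread 1.83), Plau to Sdc1 and S100a6 (0.51 and 0.58, own spread 1.82) and Procr to Stx11 and Npm3 (0.43 and 0.44, own spread 1.09). F10 was closest to Slamf8 and Lcp2 (0.53 and 0.60, own spread 1.02). F13a1 was closest to Il13ra1_2, a numbered copy of a symbol in the table, and to Nkain1 (0.46 and 0.48, own spread 0.86). The difference between wounded and normal libraries makes up most of each profile, so these values describe shared direction and size and nothing further.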

How the data were processed

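Poly(A) RNA of 24 rat brain samples went into strand-marking libraries, per the labels. Read counts per gene and TPM were deposited by the authors for the same 29539 genes, made on build mRatBN7.2 per the submitters' processing notes, and neither aligner, counting program nor strand setting is named there. In RefSeq GRCr8, Plau, Plat, F13a1 and F10 overlap other annotated genes, whose reads may not be told apart. Groups were read from sample titles. The gene test on counts was that of edgeR 4.0.16, run in R 4.3.3 (TMM, filterByExpr, robust quasi-likelihood F test, all 24 libraries in 1 fit, 21 residual degrees of freedom), and adjusted p is Benjamini-Hochberg over 14421 genes, from edgeR unless another tool is named. Intervals are 95% intervals from that fit. Total counts ran from 8911339 to 12383368. The biological coefficient of variation, from the common dispersion that edgeR estimated between libraries within groups, was 16.2%. Ratios used log2(TPM + 0.5) and an exact permutation test over 12870 assignments. Of 7 pairs, all of which enter the adjustment, 1 is not reported here, nor is 1 gene of the pathway lists.

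Alternatives were DESeq2 1.42.0, RLE factors, all 18951 genes with a count, the 14342 genes reaching CPM 1 in 8 libraries, a fit of just 2 groups, limma 3.58.1 (voom with sample weights, and log2 TPM with pseudocounts 1 and 0.1 over 15280 genes of at least 0.5 TPM in 8 libraries), the replicate number as a block, and libraries left out. The edgeR test was checked on simulated counts. The 9 genes, the pathway and marker lists, the pairs and the tests were chosen with earlier results of these data known. Named genes are the 9, up to 3 per list and direction by p in vehicle against normal control, and the 2 nearest profiles per gene. Markers, F2r and genes under the filter were named after their values were seen. Python 3.11.15 and Matplotlib 3.10.9 were also used.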

Additional observations from a re-analysis of the deposited data

Results flagged for a closer look

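Plaur in vehicle 1 stood apart from the other vehicle libraries on the TPM scale, with 26.0 TPM and 252 counts against 14.3 TPM in the next library, a gap of 0.657 of the whole range of the 8 libraries. That is above the 95% critical value of Dixon's test for 8 samples, which chance alone passes in about 1 of 20 groups. Examined were 27 groups of 8, each on both the TPM and the log2 CPM scale. On the log2 CPM scale the gap was 0.502, under that value. Without vehicle 1 the log2 fold change of Plaur was 3.85 in vehicle against normal control and -0.14 in SKF against vehicle. Vehicle 1 also had the highest summed TPM of neutrophil markers (376) and of macrophage markers (177), and their part in the Plaur value was not tested.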

How the results depend on the processing

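The number of genes called stayed between 6830 and 8001 in both comparisons with normal control over the 10 other settings, and 8 or 9 of the 9 genes were called. The lost member was Plat on the TPM scale, F10 where only the 2 groups compared were fitted, since it was then under the filter, and, without normal control 4 and 6, Plat in vehicle and F3 in SKF. Leaving out single libraries gave 7447 to 7845 genes in vehicle against normal control, 6885 to 7331 in SKF against normal control, and 0 in SKF against vehicle. DESeq2 called 6 genes in SKF against vehicle (1 higher, 5 lower), and the cause was not tested. On the TPM scale the split of calls in vehicle against normal control was 5476 higher and 2408 lower, against 3879 and 3904 in edgeR. The labels do not state that replicate numbers pair samples. Same-numbered libraries deviated with correlations of -0.241 to 0.0783 over the 3 comparisons, and 0 correlated best with its own number. This cannot show that samples were unpaired, since a pairing with little effect on RNA would look the same. In the replicate block edgeR called 7434 genes in vehicle against normal control, 0 in SKF against vehicle and 6830 in SKF against normal control, with 9, 0 and 9 of the members. Signs turned where values were near 0, and the cause was not tested. In SKF against vehicle Serpine2 was 0.0021 in the replicate block and 0.017 with limma voom, and ranged from -0.037 to 0.039 without single libraries, and Plat from -0.074 to 0.017. Without single libraries the SKF against vehicle ratios ranged from -0.082 to 0.0065 for Plat to Serpine2, from -0.15 to 0.0036 for Plau to Plat, from -0.024 to 0.15 for Thbd to Procr and from -0.30 to 0.12 for F10 to F13a1. In SKF against normal control the ratio of F10 to F13a1 was -0.053 with a pseudocount of 1 TPM and -0.014 to 0.41 without single libraries. Depth limits F10, with 0 to 6 counts per normal control library, Procr, with 4 to 13, Plaur, with 3 to 16, and Plau, with 0 to 31.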
